A study of Mus musculus with 12 samples.

Results

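The genes described here encode the receptors that position B cells in lymphoid tissue and let them leave it: the chemokine receptors Ccr7, Cxcr4, Cxcr5, Ccr6 and Cxcr3, the sphingosine-1-phosphate receptors S1pr1 and S1pr4, the oxysterol receptor Gpr183 (EBI2) and Itga4, the α4 chain of the lymphocyte homing integrins. They were taken by Entrez gene ID as 9 rows of a count table of 27179 genes. RNA-Seq was performed on B cells isolated by depletion of other cells from male C57BL/6 mice (Pep3b background) of 6 to 12 weeks of age. Naive cells received no treatment, and all other groups were cultured with 25 µg/ml lipopolysaccharide (LPS), which activates B cells without T cell help. Undivided CD69+ cells that had kept the most CellTrace Violet dye and lacked TCRβ were sorted at 3 h, 10 h and 33 h, and CD22+ CD138- expanded B cells and CD22- CD138+ plasmablasts were sorted on day 4. Each of the 6 stages had 2 biological replicates, 12 libraries in all. All 9 genes passed the filter on low counts.

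B cells enter follicles along gradients of Cxcl13, the ligand of CXCR5, and are drawn to the border of the T cell zone by Ccl19 and Ccl21, the ligands of CCR7. GPR183 guides activated B cells towards the outer follicle, S1PR1 mediates exit into blood and lymph, CXCR4 binds Cxcl12 and is known for retaining plasma cells in the bone marrow, and the α4 integrins bind VCAM1 and MAdCAM1 on endothelium and stroma. CCR6 binds Ccl20, and CXCR3 binds the interferon-induced ligands Cxcl9, Cxcl10 and Cxcl11.

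Total counts per library ran from 23026619 to 60585587. Levels are given as RPKM (counts scaled by exon length and by TMM-scaled library size), so that genes can be set side by side. B cell markers were present in every library, but Cd22 had 44 and 45 counts in plasmablasts against 60379 and 46057 in naive cells. Pax5 had 215 and 220 counts against 16670 and 12005. The summed level of the 5 plasmablast markers was 16909 and 16396 CPM (counts scaled by the total of the library) in the plasmablast libraries. It was at most 2684 CPM in any other library, at 3 h. Among these markers, Jchain had 407769 and 463592 counts in plasmablasts, and Irf4 had 59588 and 74076 counts at 3 h. The naive libraries stood apart in markers of other cells, mostly with higher sums. The 9 myeloid markers summed to 288.1 and 130.7 CPM in them and to 3.52 to 38.5 CPM elsewhere, the 4 platelet and erythroid markers to 121.3 and 86.8 CPM against at most 1.11 CPM, and the 5 natural killer cell markers to 19.1 and 16.9 CPM against 0.981 to 5.14 CPM. The 5 dendritic cell markers ran the other way, at 4.91 and 4.21 CPM in naive cells, 79.9 and 55.3 CPM at 3 h and 19.8 to 58.5 CPM at the other stages. Zbtb46 (1679 and 1746 counts at 3 h) and Flt3 made up most of the sums after the naive stage, with Clec9a at 0 in all those libraries. The 9 T cell markers summed to 63.4 and 68.8 CPM in naive cells, 73.4 and 80.7 CPM in plasmablasts and 23.3 to 42.9 CPM elsewhere, with Cd3e at 0 in the 3 h, 10 h, 33 h and plasmablast libraries. One gene made up most of each of the higher sums: Lck, which had 2291 and 1916 counts in naive cells, and Cd28, which had 2073 and 2829 counts in plasmablasts. Of the other T cell markers, Cd3d had 20 and 17 counts in naive cells and 5 and 4 in plasmablasts. Cd4 had 46 and 27 and then 12 and 12. Cd3g, which was higher in plasmablasts, had 15 and 12 and then 33 and 27. These 3 genes had at most 2 counts in any library of 3 h, 10 h or 33 h. Il7r and Cd8b1 did not follow them. Il7r had 9 and 29 counts in naive cells and 23 and 116 at 3 h. It had 79 and 49 at 10 h and 59 and 19 at 33 h. Cd8b1 had 11 and 17 counts in naive cells and 1 and 4 at 3 h. It had 29 and 10 at 10 h and 13 and 3 at 33 h. The part of such other cells in the comparisons with naive cells was not tested. In these bulk samples, fewer cells that express a gene and less RNA per cell cannot be told apart.

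Summed over the 9 genes, the level was 1125 ± 56.9 RPKM (mean ± SD, n = 2 here and below) in naive cells, 2542 ± 44.7 RPKM at 3 h, 741.9 ± 61.6 RPKM at 10 h, 387.2 ± 62.8 RPKM at 33 h, 237.9 ± 0.961 RPKM in expanded B cells and 282.7 ± 2.98 RPKM in plasmablasts. Cxcr5 and Ccr7 together made up most of this sum up to 33 h. Cxcr5 held 39.9% ± 0.778 of it in naive cells, 46.7% ± 0.546 at 3 h and 60.1% ± 3.29 at 33 h, and Ccr7 held 41.8% ± 1.06 at 3 h and 45.5% ± 1.54 at 10 h. In plasmablasts the make-up was different. Cxcr4 held 26.6% ± 0.379, Itga4 24.0% ± 0.309, Cxcr5 21.6% ± 1.08 and Ccr7 0.357% ± 0.0259.

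**Figure D1:**
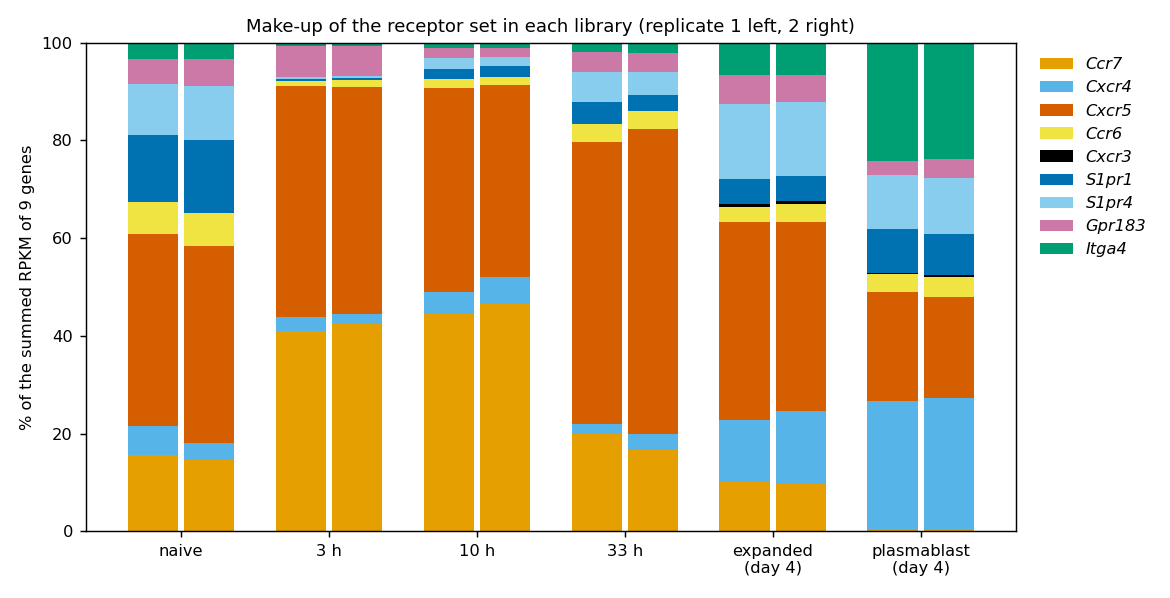
Share of the summed RPKM of the 9 genes (y axis, percent) that each gene took in each of the 12 libraries, ordered by stage on the x axis with replicate 1 on the left of each pair. Ccr7 and Cxcr5 fill most of the bars from 3 h to 33 h, whereas Cxcr4 and Itga4 take 26.6% and 24.0% in plasmablasts.

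Consecutive stages were compared with edgeR's glmTreat, which tests for a change of more than 1.5-fold, at a Benjamini-Hochberg adjusted p of 0.05 over 12750 genes. Between naive cells and 3 h, 8 of the 9 genes changed, against 45.3% of all tested genes. Ccr7, Cxcr5 and Gpr183 rose (3 of 9, against 21.0% of all genes), and Ccr6, Cxcr3, S1pr1, S1pr4 and Itga4 fell (5 of 9, against 24.3%). Between 3 h and 10 h, 6 of 9 changed against 30.8% of all genes. Cxcr3 rose, as did 17.4% of all genes, and Ccr7, Cxcr5, Ccr6, Gpr183 and Itga4 fell, as did 13.4%. Between 10 h and 33 h, 2 of 9 changed against 14.5%. Both Ccr7 and Cxcr4 fell, whereas of all genes 10.1% rose and 4.45% fell. Between 33 h and expanded B cells, 5 of 9 changed against 10.6%, with Cxcr4, Cxcr3 and Itga4 rising (6.94% of all genes rose) and Ccr7 and Cxcr5 falling (3.66% fell). Between expanded B cells and plasmablasts, 4 of 9 changed against 26.1%, with Cxcr4, S1pr1 and Itga4 rising (13.9% of all genes rose) and Ccr7 falling (12.2% fell). Under scaling by library size alone the balance of higher and lower calls was 3 and 4 between 3 h and 10 h, in place of 1 and 5, and 1 and 3 between expanded B cells and plasmablasts, in place of 3 and 1. The median log2 fold change of the 9 genes was -1.16, -0.80, -0.18, -0.15 and -0.16 at the 5 transitions, beside -0.03, 0.02, -0.02, -0.02 and -0.05 over all tested genes. In a test over all 6 stages together, each of the 9 genes changed, as did 96.7% of the genes tested. With 2 libraries per stage, the test borrows its estimate of spread from all 12 libraries.

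**Figure D2:**
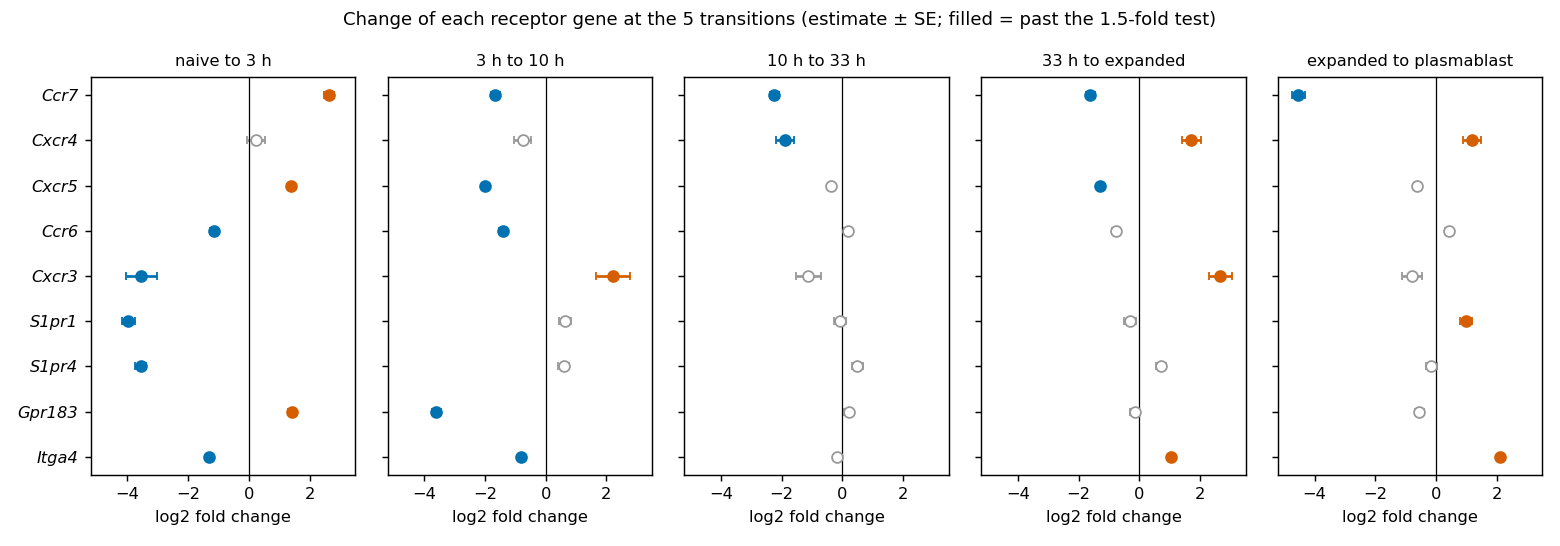
Log2 fold change (x axis) of the 9 genes (rows) at the 5 transitions (panels), with bars of 1 standard error. Filled orange points rose and filled blue points fell past the 1.5-fold test, and open points did not pass it. S1pr1 and S1pr4 show falls of 3.97 and 3.55 at the first transition, and Ccr7 shows a fall of 4.54 at the last.

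Ccr7 had the widest range of the 9 genes. Its level was 182.5 and 159.3 RPKM in naive cells, 1056 and 1067 RPKM at 3 h, 310.3 and 366.1 RPKM at 10 h, 85.9 and 57.3 RPKM at 33 h, 23.8 and 23.2 RPKM in expanded B cells, and 0.965 and 1.05 RPKM in plasmablasts. No 2 stages overlapped, and every neighbouring pair in the order of levels differed by the F-test. Ccr7 rose by 2.63 ± 0.16 (log2 fold change ± SE, adjusted p = 8.07e-08 by glmTreat) in the first 3 h. It then fell at each later transition, by 1.65 ± 0.15, 2.24 ± 0.16, 1.61 ± 0.16 and 4.54 ± 0.21. The ratio of mean RPKM between its highest and lowest stage was 1052, and in plasmablasts it rested on 45 and 59 counts. All 5 changes were past the test under every alternative that was run.

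Cxcr5 also peaked at 3 h. It measured 458.3 and 438.5 RPKM in naive cells, 1213 and 1164 RPKM at 3 h, 291.9 and 308.7 RPKM at 10 h, 249.4 and 214 RPKM at 33 h, 96.2 and 92.4 RPKM in expanded B cells, and 63.6 and 58.3 RPKM in plasmablasts. It rose by 1.41 ± 0.09 (adjusted p = 4.44e-07 by glmTreat), fell by 1.98 ± 0.09 between 3 h and 10 h (adjusted p = 3.53e-08), and fell by 1.30 ± 0.09 between 33 h and expanded B cells (adjusted p = 1.57e-05). The step from expanded B cells to plasmablasts, -0.63 ± 0.09, did not pass the 1.5-fold test (adjusted p = 0.343), but passed it under scaling by library size alone (-0.97, adjusted p = 6.30e-04). Plasmablasts still held Cxcr5 at 60.9 ± 3.69 RPKM, while their Ccr7 lay at 1.009 ± 0.0627 RPKM. The exons of Cxcr5 overlap those of Bcl9l on the opposite strand, and the use of strand in counting is not given in the sources used here.

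Ccr6 left its naive level in 2 steps and did not return to it. It measured 74.6 and 72.8 RPKM in naive cells, 29.8 and 36.1 RPKM at 3 h, 12.8 and 12.0 RPKM at 10 h, 15.6 and 12.3 RPKM at 33 h, 7.45 and 9.01 RPKM in expanded B cells, and 10.6 and 11.5 RPKM in plasmablasts. It fell by 1.16 ± 0.13 to 3 h (adjusted p = 2.98e-04 by glmTreat) and by 1.41 ± 0.14 to 10 h (adjusted p = 4.06e-05). The 3 later transitions did not pass the 1.5-fold test, and the last 2 of them passed the F-test without a fold threshold. The step from 33 h to expanded B cells, -0.76, passed the 1.5-fold test without replicate 2 of 33 h (-0.93, adjusted p = 0.0417) and was -0.58 without replicate 1. From 10 h on, all libraries lay between 7.45 and 15.6 RPKM.

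RefSeq promoter sequences (GRCm38.p6, the assembly behind mm10) were at hand for 6 of the 9 genes and not for Ccr7, Cxcr5 or S1pr1. The 250 bases before each start were searched on both strands for the letters of 5 motifs, chosen for the factors Klf2, Foxo1, Tbx21, Pou2af1 and NF-κB: the KLF box CCACCC, the forkhead site GTAAACA, the T-box half-site TCACACC, the octamer ATGCAAAT, and the kappa B site. Over 32851 windows of the same length, 28.1% held a KLF box, 3.17% a forkhead site, 3.33% a T-box half-site, 1.60% an octamer and 7.25% a kappa B site. The windows of Cxcr4, Cxcr3 and Gpr183 held no match to any of the 5 motifs. Ccr6 has 2 starts in RefSeq, at chr17:8235793-8236042 and chr17:8242276-8242525 for the bases before them (plus strand), and each window held a motif. In these sequences, shown because Ccr6 is the only one of the 6 genes with a kappa B or octamer match, capitals mark the octamer in the first and 2 overlapping kappa B matches in the second.
Ccr6, first start: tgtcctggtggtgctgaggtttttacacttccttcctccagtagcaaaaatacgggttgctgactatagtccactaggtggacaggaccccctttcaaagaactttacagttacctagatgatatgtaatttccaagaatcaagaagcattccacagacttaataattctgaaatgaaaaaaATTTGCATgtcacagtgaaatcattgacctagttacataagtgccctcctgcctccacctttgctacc
Ccr6, second start: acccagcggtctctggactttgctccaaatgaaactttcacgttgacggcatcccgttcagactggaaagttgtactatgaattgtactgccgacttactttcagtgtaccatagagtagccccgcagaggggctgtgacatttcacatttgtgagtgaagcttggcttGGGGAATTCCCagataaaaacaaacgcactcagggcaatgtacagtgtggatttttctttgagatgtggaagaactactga

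The mean of Cxcr4 was lowest at 33 h and highest in plasmablasts. It measured 69.5 and 36.0 RPKM in naive cells, 75.4 and 50.4 RPKM at 3 h, 31.3 and 42.9 RPKM at 10 h, 8.91 and 11.2 RPKM at 33 h, 30.2 and 35.5 RPKM in expanded B cells, and 75.0 and 75.4 RPKM in plasmablasts. The replicates of naive cells and of 3 h were wide apart, and the libraries of the 5 stages other than 33 h overlapped between neighbours in the order of levels. Cxcr4 fell by 1.89 ± 0.31 from 10 h to 33 h (adjusted p = 0.00429 by glmTreat). It rose by 1.71 ± 0.31 to expanded B cells (adjusted p = 0.0118) and by 1.20 ± 0.30 to plasmablasts (adjusted p = 0.0427). Without replicate 1 of 33 h the fall missed the threshold (adjusted p = 0.0557), as did the rise to expanded B cells (adjusted p = 0.139), which was also lost without replicate 2 of expanded B cells (0.0704). The rise of Cxcr4 to plasmablasts was lost without any one of the 4 libraries compared, with adjusted p from 0.0900 to 0.194, and under scaling by library size alone (0.86, adjusted p = 0.166).

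Cxcr3, on chromosome X, was near the limit of detection. It is tested in a fit with the 13195 genes kept when the X and Y chromosomes are included. The naive libraries had 57 and 45 counts of Cxcr3, the 3 h libraries 2 and 5 counts, the 10 h libraries 28 and 30, the 33 h libraries 12 and 16, the expanded B cell libraries 66 and 78, and the plasmablast libraries 22 and 38. These correspond to 1.05 and 1.09 RPKM in naive cells, 0.0692 and 0.102 RPKM at 3 h, and 1.03 and 1.46 RPKM in expanded B cells. The naive and expanded libraries overlapped, and both 3 h libraries were below all others. At 3 h the exact Poisson 95% intervals of the level were 0.0105 to 0.314 CPM and 0.0428 to 0.308 CPM, which cover counting error only. Cxcr3 fell by 3.54 ± 0.51 to 3 h (adjusted p = 9.95e-05 by glmTreat), rose by 2.21 ± 0.56 to 10 h (adjusted p = 0.0145) and rose by 2.67 ± 0.38 from 33 h to expanded B cells (adjusted p = 6.77e-04). The rise to 10 h missed the threshold without either replicate of 3 h (adjusted p = 0.0637 and 0.0506) and without replicate 2 of 10 h (0.0559). CXCR3 is also carried by T and natural killer cells, whose markers are given above.

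S1pr1 and S1pr4 were highest in naive cells. S1pr1 measured 158.3 and 161.4 RPKM in naive cells, 9.77 and 10.7 RPKM at 3 h, 14.5 and 17.4 RPKM at 10 h, 19.2 and 10.8 RPKM at 33 h, 12.5 and 12.2 RPKM in expanded B cells, and 25.4 and 23.5 RPKM in plasmablasts. Both naive libraries were above every other library, and those of 10 h, 33 h and expanded B cells overlapped. S1pr1 fell by 3.97 ± 0.22 in the first 3 h (adjusted p = 4.65e-08 by glmTreat), which is 15.7-fold by the mean RPKM. It rose by 0.99 ± 0.20 from expanded B cells to plasmablasts (adjusted p = 0.0376). That rise was lost without any one of the 4 libraries, with adjusted p from 0.0578 to 0.112, and under scaling by library size alone, where it was 0.65 (adjusted p = 0.360).

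S1pr4 also fell at the first transition, and its day 4 libraries lay above all those of 3 h, 10 h and 33 h. It measured 122.5 and 119.5 RPKM in naive cells, 9.34 and 11.2 RPKM at 3 h, 15.8 and 15.4 RPKM at 10 h, 27.1 and 16.6 RPKM at 33 h, 36.1 and 35.8 RPKM in expanded B cells, and 32.0 and 32.6 RPKM in plasmablasts. It fell by 3.55 ± 0.19 in the first 3 h (adjusted p = 1.78e-08 by glmTreat). Its 4 later transitions did not pass the 1.5-fold test, and the first 3 of them passed the F-test. The step from 33 h to expanded B cells, 0.71, passed the 1.5-fold test without replicate 1 of 33 h (1.11, adjusted p = 0.00202) and was 0.40 without replicate 2. The step from 3 h to 10 h passed the 1.5-fold test under library size alone (0.92, adjusted p = 0.0386), as did that of S1pr1 (0.97, adjusted p = 0.0392). In the order of levels, naive cells, expanded B cells and plasmablasts lay above 33 h, 10 h and 3 h, and each neighbouring pair except expanded B cells and plasmablasts differed by the F-test. The 250 bases before the S1pr4 start, at chr10:81500138-81500387 (minus strand), are printed because S1pr4 is the only sphingosine-1-phosphate receptor searched. The window held a KLF box on the reverse strand, in capitals.
S1pr4: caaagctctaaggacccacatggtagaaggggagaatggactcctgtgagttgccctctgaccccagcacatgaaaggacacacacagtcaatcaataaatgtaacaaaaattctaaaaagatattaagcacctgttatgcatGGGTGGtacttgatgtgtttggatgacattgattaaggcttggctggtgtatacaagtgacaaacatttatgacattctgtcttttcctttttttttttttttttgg

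Gpr183 gave a pulse at 3 h. It measured 60.4 and 59.1 RPKM in naive cells, 165.6 and 155.7 RPKM at 3 h, 13.3 and 13.3 RPKM at 10 h, 17.5 and 13.0 RPKM at 33 h, 14.2 and 13.2 RPKM in expanded B cells, and 7.86 and 10.7 RPKM in plasmablasts. It rose by 1.43 ± 0.14 (adjusted p = 2.58e-05 by glmTreat) and then fell by 3.60 ± 0.15 (adjusted p = 1.01e-08), a 12.1-fold drop by the mean RPKM. Both 3 h libraries were above every other library. The 3 later transitions did not pass the 1.5-fold test, and 1 of them, that to plasmablasts, passed the F-test without a fold threshold and, under library size alone, the 1.5-fold test (-0.90, adjusted p = 0.0228). From 10 h on, all libraries lay between 7.86 and 17.5 RPKM. Gpr183 lies within Ubac2 on the opposite strand, without overlap of exons.

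Itga4 was lowest at 10 h and 33 h, which did not differ from each other by the F-test (adjusted p = 0.0947), and highest in plasmablasts. It measured 38.1 and 37.0 RPKM in naive cells, 15.01 and 15.13 RPKM at 3 h, 8.23 and 9.14 RPKM at 10 h, 8.02 and 7.33 RPKM at 33 h, 15.7 and 15.9 RPKM in expanded B cells, and 68.95 and 66.71 RPKM in plasmablasts. The plasmablast libraries were above all others and their replicates were close. Itga4 fell by 1.32 ± 0.08 to 3 h (adjusted p = 6.23e-07 by glmTreat) and by 0.80 ± 0.08 to 10 h (adjusted p = 0.0115). It rose by 1.04 ± 0.08 to expanded B cells (adjusted p = 2.71e-04) and by 2.10 ± 0.08 to plasmablasts (adjusted p = 6.04e-09). The fall to 10 h missed the threshold without replicate 1 of 10 h (adjusted p = 0.114) and under library size alone, where it was -0.46. The promoter window of Itga4, at chr2:79255176-79255425 (plus strand), is printed because 2 motifs fell in it, a T-box half-site on the reverse strand and a KLF box, both in capitals. The exons of Itga4 overlap those of Cerkl on the opposite strand, which had at most 74 counts in any library.
Itga4: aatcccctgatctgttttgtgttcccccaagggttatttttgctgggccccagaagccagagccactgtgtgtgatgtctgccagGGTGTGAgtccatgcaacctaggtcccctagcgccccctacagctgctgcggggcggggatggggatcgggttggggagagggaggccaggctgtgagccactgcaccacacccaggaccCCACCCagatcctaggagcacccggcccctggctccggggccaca

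**Figure D3:**
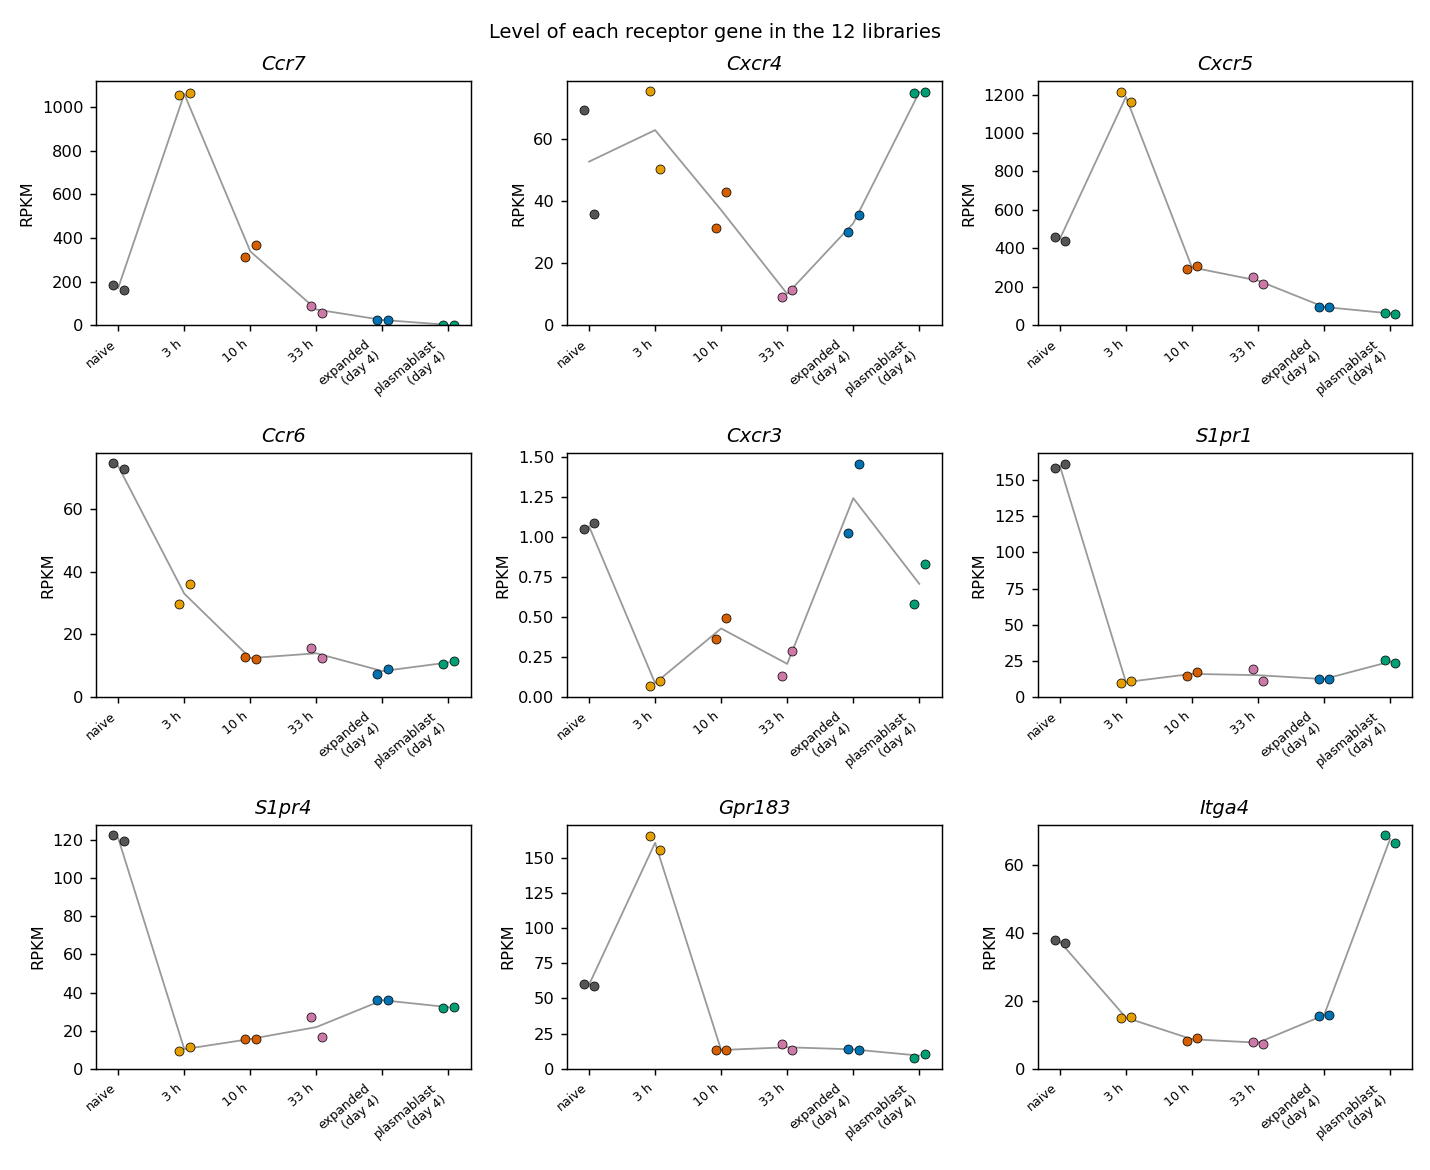
RPKM (y axis, linear from 0, a scale per panel) of each of the 9 genes in the 12 libraries by stage (x axis), with a point for each replicate and a line through the means. Ccr7, Cxcr5 and Gpr183 peak at 3 h, S1pr1, S1pr4 and Ccr6 are highest in naive cells, and Cxcr4 and Itga4 have their highest mean in plasmablasts.

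Over all 9 genes, 27 of the 45 neighbouring pairs in the order of levels differed by the quasi-likelihood F-test, and 10 pairs had libraries that overlapped. Over the 15 pairs of stages the same test called 65.6% of all gene comparisons, from 39.6% to 77.4% for a single pair. Neighbours in the order of levels are stages of a gene close to each other by its own values. The 27 of 45 can therefore not be set against that share of all pairs. Ccr7 and Cxcr5 were ordered at every place, whereas for Cxcr4 the only neighbours in this order that differed were expanded B cells and 33 h.

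The stages after 3 h were also set against naive cells, the comparisons sharing the naive libraries. At 10 h, 7 of 9 genes differed from naive cells against 39.4% of all genes, with 6 of 9 lower (19.9% of all genes) and 1 higher (19.5%). The higher one was Ccr7 (0.98 ± 0.15, adjusted p = 0.00771 by glmTreat), and Cxcr5 (-0.58 ± 0.09, adjusted p = 0.485) and Cxcr4 (-0.51 ± 0.29, adjusted p = 0.601) did not pass. At 33 h all 9 genes were lower, against 20.8% of all genes that fell and 43.1% that changed in either direction. The log2 fold changes from naive to 33 h ran from -0.95 ± 0.09 for Cxcr5 to -3.41 ± 0.21 for S1pr1, with a median of -2.40. In expanded B cells 7 of 9 were lower, against 22.2% of all genes that fell and 47.2% that changed, the exceptions being Cxcr4 (-0.69 ± 0.29, adjusted p = 0.300 by glmTreat) and Cxcr3 (0.21 ± 0.32, adjusted p = 0.977). Without naive replicate 2, Cxcr4 was called lower in expanded B cells (-1.08, adjusted p = 0.0223), and without naive replicate 1 it was at -0.13. In plasmablasts 7 of 9 differed from naive cells against 50.0% of all genes, with 6 of 9 lower (23.4% of all genes) and 1 higher (26.6%). There Ccr7 was lower by -7.40 ± 0.22, Cxcr5 by -2.88 ± 0.09, Ccr6 by -2.74 ± 0.14, S1pr1 by -2.71 ± 0.21, Gpr183 by -2.68 ± 0.15 and S1pr4 by -1.91 ± 0.17. Itga4 was the only one to be higher, by 0.85 ± 0.08 (adjusted p = 0.00153), and it missed the threshold under library size alone (0.57, adjusted p = 0.461). Cxcr4 (0.51 ± 0.29) and Cxcr3 (-0.58 ± 0.35) did not pass. Without naive replicate 1, Cxcr4 was called higher in plasmablasts (1.06, adjusted p = 0.0265), and without naive replicate 2 it was at 0.12.

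The α4 chain pairs with the β1 and β7 chains, which took different courses from it and from each other. Itgb1 measured 15.8 and 15.8 RPKM in naive cells, 46.6 and 44.4 RPKM at 3 h, 27.2 and 24.5 RPKM at 10 h, 71.6 and 76.9 RPKM at 33 h, 71.96 and 61.8 RPKM in expanded B cells, and 27.8 and 28.6 RPKM in plasmablasts. Itgb7 measured 148.4 and 155.3 RPKM in naive cells, 17.07 and 22.19 RPKM at 3 h, and 1.69 and 0.959 RPKM at 10 h. It was at 17.69 and 10.15 RPKM at 33 h, 18.2 and 17.7 RPKM in expanded B cells, and 2.36 and 2.65 RPKM in plasmablasts. The mean RPKM of Itgb1 was below that of Itgb7 in naive cells. It was above that of Itgb7 at every later stage, including plasmablasts, where Itga4 was highest.

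**Figure D4:**
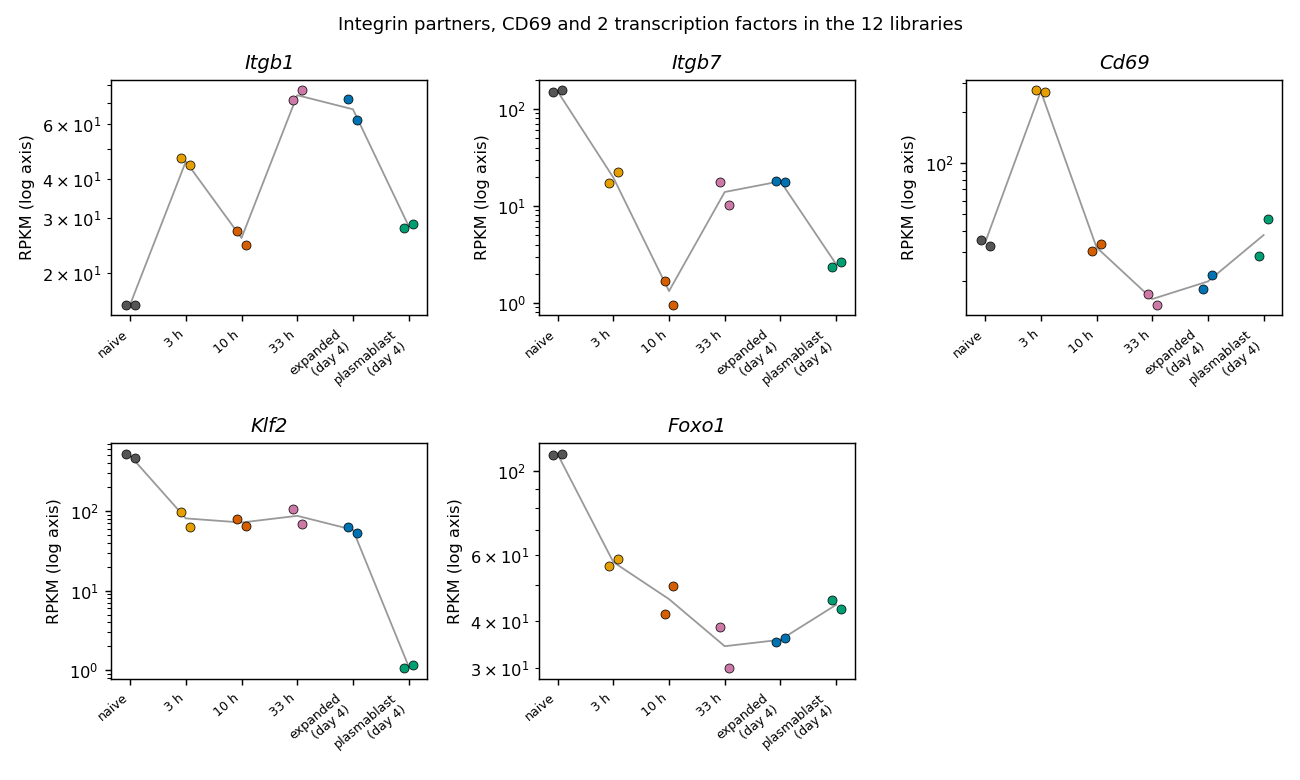
RPKM (y axis, log scale) of the integrin β chains Itgb1 and Itgb7, Cd69 and the transcription factors Klf2 and Foxo1 in the 12 libraries by stage (x axis), with a point for each replicate and a line through the means. Klf2 falls most between expanded B cells and plasmablasts, where its replicates lie at 1.07 and 1.17 RPKM.

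Of 22 other adhesion genes of lymphocyte homing, 20 were tested. From naive cells to 3 h, 4 rose and 7 fell (median log2 fold change -0.34), a share of rises near the 21.0% of all genes (24.3% fell), with Cd44 and Icam1 rising by 3.97 ± 0.14 and 3.70 ± 0.14. Both are markers of activation as well as adhesion molecules. From 3 h to 10 h, 1 rose and 11 fell (median -0.83, against 17.4% and 13.4% of all genes), and Icam1 went from 482.6 and 353.6 RPKM to 46.4 and 41.6 RPKM. From 10 h to 33 h, 5 rose and 0 fell (median 0.12, against 10.1% and 4.45% of all genes), among them Itgb7 (3.38 ± 0.29), Itgam (2.81 ± 0.36) and Itgb1 (1.52 ± 0.09). From 33 h to expanded B cells, 3 rose and 1 fell (median 0.41, against 6.94% and 3.66%), 1 of the rises being that of Madcam1, which reached the filter only in expanded B cells, with Itgb3 at 3.22 ± 0.14. From expanded B cells to plasmablasts, 6 rose and 6 fell (median -0.03, against 13.9% and 12.2%). Selplg, the P-selectin ligand, rose by 2.18 ± 0.13, and Itgam fell from 1016 and 767 counts to 0 and 3.

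Of 33 other chemoattractant receptors, 28 were tested. From naive cells to 3 h, 2 rose and 16 fell. Of those that fell, 6 (Ccr2, Cxcr2, S1pr5, Ltb4r1, Ccr3 and Cx3cr1) reached the filter on low counts only through the naive libraries and could only fall. Of the other 22, 2 rose and 10 fell (median log2 fold change -0.63), against 21.0% and 24.3% of all genes. Gpr132, a receptor for lipid ligands, rose by 1.77 ± 0.08 and Ptger4, a prostaglandin E2 receptor, by 2.22 ± 0.15, both with a return at 10 h of -2.30 ± 0.08 and -1.79 ± 0.15. Several falls ended at or near 0. Ccr2, Cxcr2 and S1pr5 had 245 and 93, 49 and 29, and 55 and 21 counts in naive cells and 0 in both 3 h libraries, at least 40.8-fold, 9.68-fold and 9.18-fold lower on the TMM scale against a floor of 3 counts per library. Ltb4r1 and Ccr3 went from 44 and 16 and from 26 and 18 counts to 0 in both, and Cx3cr1 from 172 and 75 counts to 0 and 1. Ccr2, Cxcr2 and S1pr5 are typical of myeloid and natural killer cells, and each had a higher RPKM in naive replicate 1, which also held more of the myeloid markers. From 3 h to 10 h, 4 rose and 7 fell (17.4% and 13.4% of all genes), from 10 h to 33 h, 7 rose and 0 fell (10.1% and 4.45%), and from 33 h to expanded B cells, 7 rose and 1 fell (6.94% and 3.66%). In the latter step Ccr10, a receptor of IgA plasma cells for mucosal chemokines, rose by 4.89 ± 0.34 to 3.27 and 5.36 RPKM. From expanded B cells to plasmablasts, 5 rose and 4 fell (13.9% and 12.2%). Ccr10 rose by another 2.37 ± 0.23 to 18.7 and 25.7 RPKM, Ccrl2 rose by 2.75 ± 0.22, and Gpr55, a lysophospholipid receptor, rose by 1.96 ± 0.13 to 60.0 and 63.8 RPKM. The decoy receptor Ackr2 fell from 963 and 793 counts to 0 and 1.

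Of 34 genes of receptor signalling and desensitisation, all 34 were tested. From naive cells to 3 h, 4 rose and 18 fell (median -0.81), against 21.0% and 24.3% of all genes, with Rgs14, which restrains G protein signalling, at -4.86 ± 0.20 and Gna15 at -4.03 ± 0.28. Cd69, whose product binds S1PR1 and removes it from the cell surface, measured 35.2 and 32.6 RPKM in naive cells, 269.5 and 263.5 RPKM at 3 h, and 30.4 and 33.3 RPKM at 10 h. It rose by 2.97 ± 0.19 while S1pr1 fell, and the 3 h, 10 h and 33 h cells were sorted for its product. From 3 h to 10 h, 6 rose and 10 fell (median -0.28, against 17.4% and 13.4%), and from 10 h to 33 h, 7 rose and 3 fell (median 0.40, against 10.1% and 4.45%), with Fermt3 (kindlin-3), which activates integrins, at 1.53 ± 0.17. From 33 h to expanded B cells, 6 rose and 2 fell (median -0.02, against 6.94% and 3.66%), with Rgs16 at 4.88 ± 0.25 and Rgs13 at 2.72 ± 0.23. From expanded B cells to plasmablasts, 4 rose and 9 fell (median -0.35, against 13.9% and 12.2%). Pik3cg, the catalytic subunit of the PI3-kinase downstream of chemokine receptors, rose by 3.30 ± 0.14 to 98.8 and 96.0 RPKM, and Rasgrp2, which activates Rap1 and so integrins, fell by 2.87 ± 0.15 to 4.64 and 5.21 RPKM.

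Of 21 ligands and ligand-handling enzymes, 11 were tested. From naive cells to 3 h, 3 rose and 6 fell. Vcam1, the ligand of the α4 integrins, reached the filter only through the naive libraries, with 170 and 152 counts there and at most 2 in any other, and could only fall. Of the other 10, 3 rose and 5 fell (median -0.53), against 21.0% and 24.3% of all genes. Cxcl10, a ligand of CXCR3, rose by 5.68 ± 0.33 from 7 and 6 counts to 183 and 380 counts, at the time when Cxcr3 itself had 2 and 5 counts. Sgpl1, which degrades sphingosine-1-phosphate, rose by 1.08 ± 0.12, and Spns2, which exports it, fell by 3.31 ± 0.23. At the 4 later transitions 5, 1, 3 and 2 of the 11 genes fell, against 13.4%, 4.45%, 3.66% and 12.2% of all genes. At each of the first 3 of these transitions 1 of the 11 rose, against 17.4%, 10.1% and 6.94%.

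**Figure D5:**
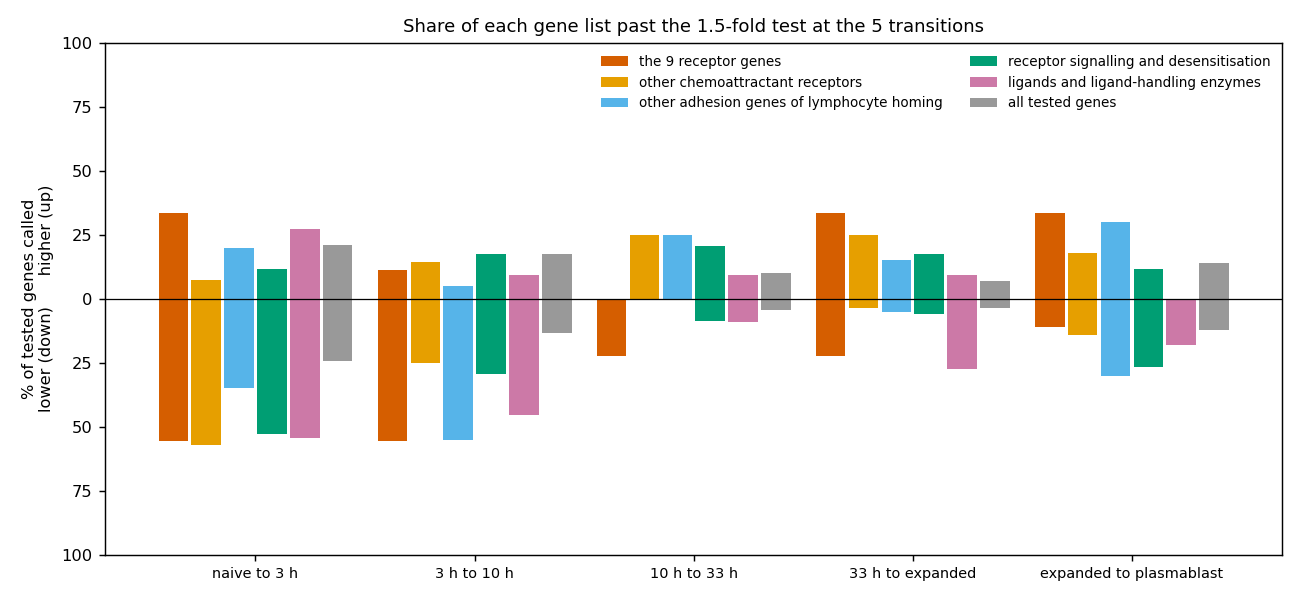
Percentage of the tested genes of each list (y axis) that rose (above 0) or fell (below 0) past the 1.5-fold test at the 5 transitions (x axis), for the 9 receptor genes, 4 related lists and all tested genes. At the first transition 5 of the 9 receptor genes fell and 3 rose, beside 24.3% and 21.0% of all genes, and the 16 falls among the chemoattractant receptors include the 6 genes that reached the filter only through naive cells.

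Factors known to act on some of these genes were measured in the same libraries, and their part in the changes was not tested. Klf2, which drives S1pr1 in lymphocytes, measured 524.7 and 471 RPKM in naive cells, 98.6 and 63.5 RPKM at 3 h, 78.6 and 65.3 RPKM at 10 h, 106 and 68.7 RPKM at 33 h, 63.0 and 53.5 RPKM in expanded B cells, and 1.07 and 1.17 RPKM in plasmablasts. It fell by 2.62 ± 0.23 at the first transition (adjusted p = 4.99e-06 by glmTreat), when S1pr1 and S1pr4 fell. At the last transition Klf2 fell by 5.70 ± 0.31 (adjusted p = 1.50e-07 by glmTreat), when S1pr4 was at -0.16 ± 0.17. S1pr1 rose there, a call lost whichever of the compared libraries was left out and under scaling by library size alone. Foxo1, which acts on Ccr7, fell by 0.95 ± 0.11 to 3 h (adjusted p = 0.00212) and passed the test at no later transition. Nfkb2 and Relb, members of the NF-κB family, rose by 1.92 ± 0.09 and 1.65 ± 0.11 to 3 h. They fell by 1.45 ± 0.09 and 1.34 ± 0.11 to 10 h. Ccr7, Cxcr5 and Gpr183 rose and fell at the same transitions. Ccr6, which had kappa B matches before its second start, fell at both of these transitions, as did Itga4. Tbx21 (T-bet), which acts on Cxcr3, measured 2.23 and 1.79 RPKM in naive cells and 1.31 and 1.07 RPKM at 3 h, when Cxcr3 was lowest. Tbx21 was at 0.179 and 0.114 RPKM at 10 h, 1.51 and 1.04 RPKM at 33 h, and 0.353 and 0.271 RPKM in expanded B cells. It fell by 2.03 ± 0.29 from 33 h to expanded B cells (adjusted p = 0.00120), the step at which Cxcr3 rose. Pou2af1, the B cell coactivator OBF-1, which acts on Cxcr5 in B cells, was at 1039 and 1098 RPKM in plasmablasts against 294.4 and 298.8 RPKM in naive cells, while Cxcr5 was at its lowest.

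The genes whose log2 RPKM followed each of the 9 most closely over the 12 libraries, out of 8554 protein-coding genes with an average of at least 3 log2 CPM, are given as a description, since libraries of a stage share that stage. For Ccr7 they were Prkab2 (Pearson r = 0.988), Cd72 (0.988) and Nelfb (0.987), and for Cxcr5 they were Scaf8 (0.994), Rnf40 (0.993) and Birc3 (0.992). Birc3 measured 99.8 and 101.7 RPKM in naive cells, 249.9 and 251.8 RPKM at 3 h and 24.1 and 23.8 RPKM in plasmablasts. For Gpr183 they were Flii (0.989), Prr7 (0.988) and Stk4 (0.986), for Ccr6 Filip1l (0.979), H3f3a (0.977) and Tsc22d1 (0.976), and for S1pr1 Zfp709 (0.990), Tor4a (0.988) and Pla2g15 (0.978). For S1pr4 they were Sema4b (0.985), Rnase6 (0.983) and Arhgap9 (0.980). Rnase6 measured 161.9 and 176.3 RPKM in naive cells, 8.997 and 8.576 RPKM at 3 h and 33.0 and 32.8 RPKM in plasmablasts. For Itga4 they were St14 (0.976), Zscan26 (0.973) and Cyp4f18 (0.969), all with their highest level in plasmablasts. The likeness was lower for Cxcr4, with Atp1b1 (0.932), Arel1 (0.927) and Wbp2 (0.914), and for Cxcr3, with Ndufaf3 (0.921), Zfp710 (0.913) and Stambpl1 (0.911).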

How the data were processed

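RNA-Seq counts were analysed from 12 libraries. The authors aligned 81 bp paired-end reads to mm10 with Rsubread 1.28.0 and counted them with featureCounts on its inbuilt Entrez annotation; the deposited values are raw counts per gene with exon lengths, unfiltered. Of 27179 IDs, 25275 matched the RefSeq gene table (GRCm38.p6). IDs without a match, mitochondrial, ribosomal RNA, X and Y genes and variable immunoglobulin segments were removed as in the study's methods, which left 23700 genes, and filterByExpr kept 12750. Cxcr3 was tested in a second fit with X and Y genes kept.

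edgeR 4.0.16 (R 4.3.3) was used with TMM scaling, robust quasi-likelihood dispersions and a layout of all 12 libraries. Adjusted p-values come from glmTreat (fold change 1.5) or the quasi-likelihood F-test, with Benjamini-Hochberg adjustment over all genes. The scripts were tested on simulated data. RPKM used deposited lengths, marker CPM the total counts, and the floor of a stage was set at 3 counts per library. A gene reached the filter only through 1 stage where fewer than 2 libraries of the other stages held the equivalent of 10 counts in a library of median size. The members, gene lists and motifs were chosen with earlier results of these data known. Of each list, at most the 3 largest rises and 3 largest falls among called genes were named at each transition, with all factors and the 3 genes most like each member. Alternatives were DESeq2 1.42.0, other scalings, filters and dispersions, fits of the compared libraries alone, a replicate block and leaving out each library. Hi-C data were not analysed here. Some genes of the lists are not reported here.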

Additional observations from a re-analysis of the deposited data

How the results depend on the processing

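Of 1072 values of the 9 genes under 23 other settings, 1015 kept their direction and their side of the threshold, 29 were past it only there, 19 lost it and 9 changed sign. Of the 48 changes called, 41 held under every alternative that was run. The number of genes called from 10 h to 33 h was 5 by the F-test without a fold threshold (45.5% of all genes), 4 by DESeq2's Wald test, and 1 to 2 without 1 library. From expanded B cells to plasmablasts it was 7 by the F-test (56.9% of all genes), 7 by the Wald test, and 2 without any one library, with Cxcr4 and S1pr1 lost each time. The changes of sign concerned values that did not pass the test. Without 1 library, Cxcr4 from naive cells to 3 h ran from -0.15 to 0.80 and Cxcr3 from naive to expanded B cells from -0.05 to 0.45. From 10 h to 33 h, Gpr183 ran from -0.03 to 0.41, Ccr6 from -0.01 to 0.34 and S1pr1 from -0.55 to 0.28. From 33 h to expanded B cells, Gpr183 ran from -0.36 to 0.08 and S1pr1 from -0.64 to 0.18. The cause was not tested. Scaling by library size alone moved the median of all genes by -0.21, 0.33 and -0.34 (log2) at the first, second and last transition and by -0.28 from naive cells to plasmablasts, and took Itga4 (3 h to 10 h and naive to plasmablast), Cxcr4 and S1pr1 (expanded to plasmablast) out of the calls, and brought in S1pr4 and S1pr1 (3 h to 10 h) and Cxcr5 and Gpr183 (expanded to plasmablast). Between naive cells and plasmablasts it left 0 genes higher and 6 lower. The comparison of 10 h with naive cells was added after seeing the data and was made with the settings of the text only. Under the filter of 10 counts per library Cxcr3 had no value. Whether the replicate numbers pair the samples is not stated in the sources used here. Deviations of same-numbered libraries correlated between -0.139 and 0.0842 over 15 pairs of stages, which cannot exclude a small shared effect. With a replicate block the counts of genes called were 8, 6, 2, 5 and 4 at the 5 transitions, the same as without it. A library left out leaves a stage with 1 sample, which was assumed to vary like the others. Depth limits Cxcr3 at 3 h, with 2 and 5 counts. Of the 3 genes most like each receptor gene, 0 to 2 were again among the 3 closest by Spearman's rho and 1 to 3 over stage means.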
